A study of Homo sapiens with 6 samples.

Results

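The set described here has 48 genes, chosen by name as RNA acetylation, ribosome assembly and RNA polymerase I factors, out of 63186 gene identifiers in the deposited table. Each symbol matched 1 identifier, and all 48 were among the 15911 genes with enough reads to be tested. They are divided into RNA acetylation (2 genes), box C/D and box H/ACA small nucleolar ribonucleoproteins (snoRNPs, 4 each), nucleolar phosphoproteins (3), small subunit processome and maturation (16), large subunit assembly (15) and RNA polymerase I (4).

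Ribosomes are made in the nucleolus. RNA polymerase I transcribes a long precursor rRNA, snoRNPs guide its chemical modification, and large sets of assembly factors fold, cut and load it with ribosomal proteins into a small and a large subunit. The acetyltransferase NAT10 places N4-acetylcytidine on the rRNA of the small subunit and, with the adaptor protein THUMPD1, on tRNA, and acetylated mRNA has also been described. Rapidly dividing tumour cells depend on this pathway, and NAT10 is named in the study's title.

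RNA-seq compared 3 libraries of RBE cells transfected with siRNA against CHAF1A (si-CHAF1A) with 3 libraries of RBE cells given a control siRNA (si-Ctrl). RBE is an established human tumour line from the bile ducts of the liver (intrahepatic cholangiocarcinoma). The target, CHAF1A, encodes the biggest protein of the chaperone CAF-1, which places new histones on replicating DNA. Both groups were transfected with Lipofectamine 3000 at about 60% confluency, received new DMEM after 24 h and were collected at 48 h, and no other treatment is given. A single cell line was used, with siRNAs of a number and sequence not given in the sources used here.

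Levels are given as CPM (read counts divided by a TMM-scaled library size), and differences are fitted log2 fold changes of si-CHAF1A over si-Ctrl from edgeR's quasi-likelihood test, with p-values adjusted by the Benjamini-Hochberg method over all 15911 genes at a threshold of 0.05. CHAF1A itself had 11.1, 12.9 and 11.2 CPM in si-CHAF1A, against 51.5, 59.8 and 51.0 CPM in si-Ctrl, a 4.61-fold fall (adjusted p = 2.57e-10). The libraries held 15643381 to 20918997 counts. The first principal component of all tested genes (65.1% of the variance) set the groups apart. Along the second (11.2%), library si-Ctrl 2 stood away at 29.62, with the other si-Ctrl libraries at -14.95 and -13.91, and for genes of the set whose call, or fold change by over 1.5 times, changes without si-Ctrl 2 the value without it is given. Markers of bile duct epithelium such as KRT7 and KRT19 summed to 5330 to 5860 CPM in si-CHAF1A and 4130 to 4800 CPM in si-Ctrl, with 0 of 8 markers at 0. The 6 hepatocyte markers summed to 75.4 to 94.7 CPM in si-CHAF1A and 55.8 to 61.1 CPM in si-Ctrl, nearly all from SERPINA1 and HNF4A, as ALB, APOA1, APOB and TTR were each under 1 CPM in every library. The 5 fibroblast markers summed to 16 to 35.7 CPM in si-CHAF1A and 8.66 to 11.5 CPM in si-Ctrl, with DCN and LUM each under 1 CPM in every library. The 35.7 CPM was that of si-CHAF1A 1, where COL1A1 had 23.4 CPM, against 11.3 and 11.8 CPM in si-CHAF1A 2 and 3. The 3 endothelial markers summed to 6.32 to 8.86 CPM in si-CHAF1A and 2.41 to 3.71 CPM in si-Ctrl, nearly all from PECAM1 and VWF. The 4 immune markers summed to under 1 CPM in every library. Their part in the results was not tested.

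Most of the 48 genes were lower after the knockdown, by small folds. Of the 48, 34 fell (70.8%), 2 rose (4.17%) and 12 did not pass the test, where 19.3% of all genes tested fell, 18.5% rose and 37.8% changed in either direction. The median log2 fold change of the 48 genes was -0.31, against 0.00 over all genes tested. The falls ranged from 1.15-fold to 4.35-fold with a median of 1.31-fold, and 29 of the 34 were smaller than 1.5-fold. In 34 genes every si-CHAF1A library lay under every si-Ctrl library (24.1% of all genes tested), and in 4 every si-CHAF1A library lay over every si-Ctrl library (also 24.1% of all genes tested). Without si-Ctrl 2 the numbers were 34 lower and 3 higher, with a median of -0.29, while 3709 of all genes then fell and 3519 rose, against 3064 and 2944 with it.

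The shift was nearly the same size in each knockdown library. Relative to the mean of the controls, the median log2 level of the 48 genes was -0.3013, -0.3003 and -0.3008 in si-CHAF1A 1, 2 and 3, against -0.02663, 0.09366 and -0.02902 in si-Ctrl 1, 2 and 3. The 48 genes summed to 3968 ± 48.1 CPM in si-CHAF1A and 4798 ± 283 CPM in si-Ctrl (SD, n = 3 each), and took 0.397% to 0.407% of all counts in si-CHAF1A and 0.462% to 0.485% in si-Ctrl. Control library si-Ctrl 2 was the highest of the 3 controls in 32 of the 48 genes (66.7%), against 41.2% of all genes tested. These are shares of the RNA in each library, so fewer cells of a type and less RNA of these genes per cell cannot be told apart.

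The genes are well expressed, which bears on how often a test is passed. Among genes averaging at least 16 CPM, 33 of 45 members fell (73.3%) and 2 rose (4.44%), where 29.1% of the 8220 genes at that level fell and 20.2% rose. Falls of at least 0.5 on the log2 scale were found in 7 of the 48 (14.6%), against 7.57% of all genes tested.

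**Figure D1:**
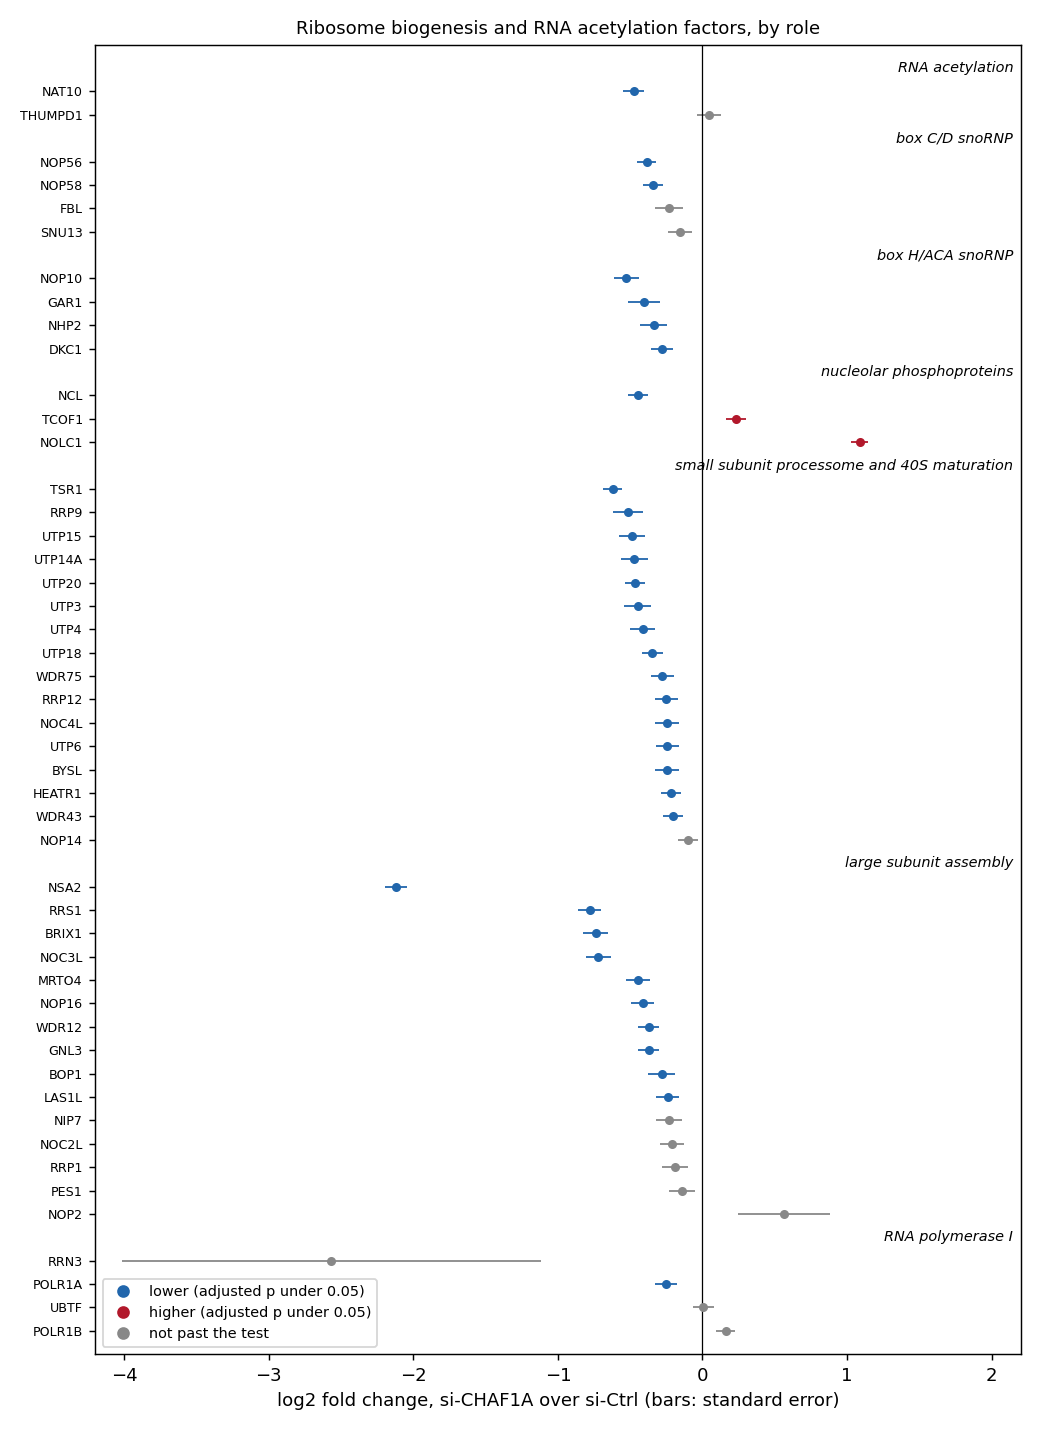
Fitted log2 fold change of si-CHAF1A over si-Ctrl (x axis) for each of the 48 genes, grouped by role, with bars for the standard error; blue genes fell, red genes rose and grey genes did not pass the test at an adjusted p of 0.05. Every role has at least 1 blue point, NSA2 is the blue point farthest left at -2.12, the grey RRN3 at -2.57 has a wide bar, and NOLC1 (1.09) and TCOF1 (0.23) are the red points.

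Promoters of the set were searched for the E-box letters CACGTG, a palindrome read the same on both strands and bound by dimers of MYC and MAX, for which genes of ribosome biogenesis are textbook targets. A window of 300 bases, 250 before to 50 after the start site (RefSeq, GRCh38.p14), was at hand for 41 of the 48 genes. CACGTG stood in 15 of the 41 (36.6%) and in 16.8% of 185 other genes of the pathway. It stood in 9.76% of tested genes with a window and in 7.43% of all 27305 windows. The 17 copies in the set had a median position 3 bases after the start site, and 15 of them lay from 100 bases before to 50 after it. The ETS letters CCGGAAG, searched on both strands, stood in 17 of the 41 (41.5%), in 37.8% of the other pathway genes and in 10.7% of all windows. AAGATGG, the core of the YY1 motif, stood in 5 (12.2%), in 13.5% of the other pathway genes and in 6.06% of all windows. TCTCGCG stood in 4 (9.76%), in 17.3% of the other pathway genes and in 3.53% of all windows. All windows include those of genes not tested here, and the share among tested genes was taken for CACGTG only. A match describes letters and shows no binding.

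The windows below are shown because they belong to genes that fell with an E-box (NAT10, NOP10, UTP20, NOC3L) and to 2 of the largest falls without one (NSA2, BRIX1). Each is written 5′ to 3′ on the gene's strand, with CACGTG in capitals.
NAT10 (chr11:34105379-34105678, plus strand): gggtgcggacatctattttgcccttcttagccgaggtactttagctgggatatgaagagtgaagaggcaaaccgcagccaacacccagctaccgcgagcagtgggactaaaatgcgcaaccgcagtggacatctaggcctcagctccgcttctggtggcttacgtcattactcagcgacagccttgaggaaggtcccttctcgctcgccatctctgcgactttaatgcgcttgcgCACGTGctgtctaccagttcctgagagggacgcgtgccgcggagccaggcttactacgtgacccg
NOP10 (chr15:34343087-34343386, minus strand): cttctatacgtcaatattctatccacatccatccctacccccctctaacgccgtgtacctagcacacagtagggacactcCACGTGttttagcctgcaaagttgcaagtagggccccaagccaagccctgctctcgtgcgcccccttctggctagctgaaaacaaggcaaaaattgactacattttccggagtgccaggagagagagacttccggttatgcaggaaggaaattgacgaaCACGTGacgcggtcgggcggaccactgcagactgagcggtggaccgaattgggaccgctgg
UTP20 (chr12:101279855-101280154, plus strand): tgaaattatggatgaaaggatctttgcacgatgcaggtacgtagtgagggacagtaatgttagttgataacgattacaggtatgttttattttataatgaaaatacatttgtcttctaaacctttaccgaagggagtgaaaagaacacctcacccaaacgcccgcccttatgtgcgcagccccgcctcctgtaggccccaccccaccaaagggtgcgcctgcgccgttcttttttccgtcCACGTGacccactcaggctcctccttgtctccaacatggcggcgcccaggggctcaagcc
NOC3L (chr10:94362890-94363189, minus strand): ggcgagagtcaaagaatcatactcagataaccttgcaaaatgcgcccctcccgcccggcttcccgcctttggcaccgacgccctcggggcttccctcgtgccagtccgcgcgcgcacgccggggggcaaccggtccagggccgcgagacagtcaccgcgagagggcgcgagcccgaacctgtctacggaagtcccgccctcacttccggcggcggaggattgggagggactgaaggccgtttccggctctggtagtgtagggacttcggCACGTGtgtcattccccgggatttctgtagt
NSA2 (chr5:74766999-74767298, plus strand): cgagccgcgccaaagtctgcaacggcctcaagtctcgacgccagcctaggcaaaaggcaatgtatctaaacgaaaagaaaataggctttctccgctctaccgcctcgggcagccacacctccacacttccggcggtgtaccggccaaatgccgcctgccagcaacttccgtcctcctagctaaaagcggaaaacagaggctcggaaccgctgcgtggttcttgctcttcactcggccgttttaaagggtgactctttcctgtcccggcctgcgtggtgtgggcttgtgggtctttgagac
BRIX1 (chr5:34915461-34915760, plus strand): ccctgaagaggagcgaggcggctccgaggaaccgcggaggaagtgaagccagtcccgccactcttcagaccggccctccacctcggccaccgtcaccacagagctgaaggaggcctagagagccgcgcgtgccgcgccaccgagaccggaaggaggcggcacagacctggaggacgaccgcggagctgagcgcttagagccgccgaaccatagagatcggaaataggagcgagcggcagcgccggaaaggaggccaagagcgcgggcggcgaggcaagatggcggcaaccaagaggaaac

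Genes with and without the E-box were set side by side, with no test of the difference. With CACGTG, 11 of 15 genes fell (73.3%, median log2 fold change -0.41), and without it 19 of 26 fell (73.1%, median -0.31). NOLC1 and TCOF1, the 2 genes of the set that rose, had no window and are in neither group. Over all tested genes with a window, 24.2% of 1102 with the letters fell and 21.2% of 10184 without them. MYC mRNA had 215 ± 8.51 CPM in si-CHAF1A and 208 ± 14.2 CPM in si-Ctrl (SD, n = 3 each), with overlapping groups (log2 fold change 0.04, 95% interval -0.10 to 0.19, adjusted p = 0.648). Of the 8 genes of the MYC network measured, 0 fell and 2 rose (25%, against 18.5% of all genes tested), the MAX partners MXD4 (log2 fold change 0.59) and MXI1 (0.32). The number that rose was 1 without si-CHAF1A 1 or si-CHAF1A 2 and 4 without si-Ctrl 2.

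NAT10, the enzyme that writes N4-acetylcytidine, fell 1.39-fold, while its adaptor did not pass the test. NAT10 (ENSG00000135372, chromosome 11, 34105602 to 34147670, plus strand) had 59.0, 59.8 and 61.6 CPM in si-CHAF1A, against 82.5, 89.1 and 79.5 CPM in si-Ctrl. Every knockdown library lay under every control, at 60.2 ± 1.35 CPM in si-CHAF1A and 83.7 ± 4.95 CPM in si-Ctrl (SD, n = 3 each; log2 fold change -0.48, SE 0.07, adjusted p = 7.08e-05 by edgeR). The call held under all 13 alternatives tried. THUMPD1 had 60.1, 62.3 and 64.6 CPM in si-CHAF1A, against 64.7, 53.6 and 63.2 CPM in si-Ctrl, so the groups overlapped (log2 fold change 0.05, 95% interval -0.13 to 0.22, adjusted p = 0.697), with -0.04 without si-Ctrl 2.

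Box C/D snoRNPs carry guide RNAs for 2′-O-methylation of rRNA, with fibrillarin (FBL) as the methyltransferase on a scaffold of NOP56, NOP58 and SNU13. NOP56 and NOP58 fell, and FBL and SNU13 did not pass the test. NOP56 had 123, 126 and 133 CPM in si-CHAF1A, against 159.7, 175 and 165 CPM in si-Ctrl (log2 fold change -0.39, SE 0.07, adjusted p = 0.000251 by edgeR). NOP58 had 72.6, 73.9 and 70.0 CPM in si-CHAF1A, against 93.6, 85.7 and 94.6 CPM in si-Ctrl (log2 fold change -0.34, SE 0.07, adjusted p = 0.00106 by edgeR). For both, the groups did not overlap. FBL had 106, 109 and 110.4 CPM in si-CHAF1A, against 108, 152 and 122 CPM in si-Ctrl, where si-Ctrl 2 was far above the other controls (log2 fold change -0.23, 95% interval -0.44 to -0.03, adjusted p = 0.0702). Without si-Ctrl 2 its log2 fold change was -0.09 (adjusted p = 0.156), and over all alternatives the adjusted p lay between 0.00678 (without si-Ctrl 1) and 0.185 (without si-CHAF1A 1), with 0.0121 when no filter on low counts was used. SNU13 differed by -0.15 (95% interval -0.33 to 0.02, adjusted p = 0.166), and by -0.06 without si-Ctrl 2.

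Box H/ACA snoRNPs guide the conversion of uridine to pseudouridine by dyskerin (DKC1), held with NOP10, NHP2 and GAR1, and the same proteins bind telomerase RNA. All 4 genes fell, with no overlap between the groups. NOP10, the smallest of the 4 proteins, had 32.5, 34.2 and 32.5 CPM in si-CHAF1A, against 45.0, 53.8 and 43.9 CPM in si-Ctrl, a 1.44-fold fall (log2 fold change -0.53, SE 0.09, adjusted p = 0.00025 by edgeR). DKC1 had 119.7, 126 and 118 CPM in si-CHAF1A, against 147, 161 and 132 CPM in si-Ctrl (log2 fold change -0.28, SE 0.08, adjusted p = 0.0084 by edgeR). GAR1 fell by 0.40 and NHP2 by 0.34 on the log2 scale, and NHP2 by 0.20 without si-Ctrl 2 (adjusted p = 0.00412). Without si-CHAF1A 3 only 2 of the 4 passed, as the adjusted p was 0.0525 for DKC1 and 0.0601 for NHP2.

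The nucleolar phosphoproteins moved in opposite directions. NOLC1 and TCOF1 are related acidic proteins, known to bring together RNA polymerase I and the modification machinery, and they were the 2 genes of the set that rose. NOLC1 (chromosome 10, 102152176 to 102163871, plus strand) had 256, 272 and 266 CPM in si-CHAF1A, against 122, 124 and 128 CPM in si-Ctrl. Each knockdown library was thus above every control by about the same amount, a 2.12-fold rise (log2 fold change 1.09, SE 0.06, adjusted p = 2.82e-09 by edgeR). Its log2 fold change was the 607th highest of the 15911 genes, whether or not these passed the test. TCOF1 had 169, 167 and 161 CPM in si-CHAF1A, against 132, 154 and 137 CPM in si-Ctrl (log2 fold change 0.23, SE 0.07, adjusted p = 0.0147 by edgeR). The rise of TCOF1 did not pass the test without si-CHAF1A 1 (adjusted p = 0.0701), si-CHAF1A 2 (0.0635), si-Ctrl 1 (0.0778) or si-Ctrl 3 (0.0654). NCL, nucleolin, an abundant RNA-binding protein of the nucleolus, went the other way. It had 844, 869 and 869.6 CPM in si-CHAF1A, against 1098, 1295 and 1123 CPM in si-Ctrl, a 1.36-fold fall with no overlap (log2 fold change -0.45, SE 0.07, adjusted p = 9.42e-05 by edgeR).

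**Figure D2:**
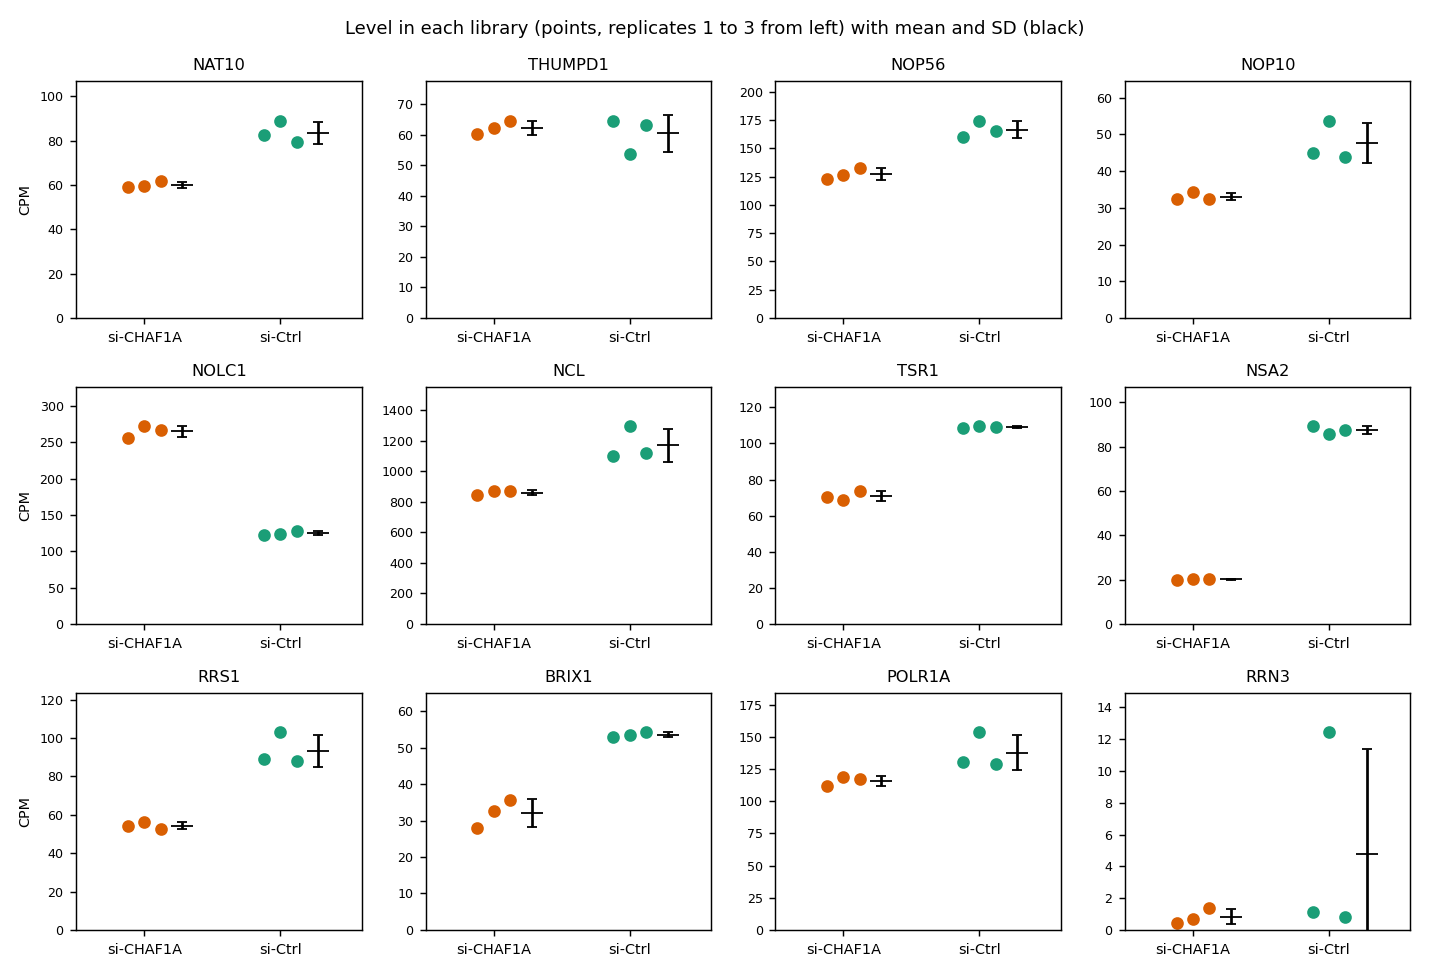
Level in CPM (y axis, from 0) of 12 genes in each si-CHAF1A library (orange) and each si-Ctrl library (green), replicates 1 to 3 from left in each group, with the mean and SD (n = 3) in black. NSA2 lies near 20.1 CPM in si-CHAF1A and 87.4 CPM in si-Ctrl, NOLC1 is the panel with si-CHAF1A on top, and the RRN3 mean of si-Ctrl rests on si-Ctrl 2 (12.4 CPM).

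The small subunit processome is the particle that forms on the early precursor rRNA, and 15 of the 16 factors of this role fell, with a median log2 fold change of -0.31. TSR1, a GTPase-like factor bound to late small subunit precursors, had 70.5, 68.5 and 73.7 CPM in si-CHAF1A, against 108, 109 and 109 CPM in si-Ctrl. The controls differed little (SD 0.525 CPM), and the fall was 1.54-fold (log2 fold change -0.62, SE 0.06, adjusted p = 2.42e-06 by edgeR). Exons of TSR1 overlap those of SRR and SGSM2 on the opposite strand. SGSM2 had 1116, 989 and 1072 reads in si-CHAF1A, against 718, 1002 and 805 reads in si-Ctrl. UTP20, a very large scaffold protein, had 62.4, 65.8 and 68.0 CPM in si-CHAF1A, against 94.0, 86.3 and 90.3 CPM in si-Ctrl (log2 fold change -0.46, SE 0.07, adjusted p = 7.58e-05 by edgeR). RRP9, which binds the U3 snoRNA, had 25.1, 28.7 and 25.9 CPM in si-CHAF1A, against 32.4, 43.7 and 37.6 CPM in si-Ctrl (log2 fold change -0.52, SE 0.11, adjusted p = 0.00116 by edgeR). In each of these 3 genes the knockdown libraries were below all controls.

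The other small subunit factors that passed fell by 0.49 or less on the log2 scale. Of the first complex to bind the precursor, which in human cells is also needed for its transcription, UTP15 fell by 0.49, UTP4 by 0.41, WDR75 by 0.28, HEATR1 by 0.22 and WDR43 by 0.20. Of the second complex, UTP18 fell by 0.35 and UTP6 by 0.24. UTP14A, which in yeast activates the helicase that releases the U3 snoRNA, fell by 0.47, and UTP3 fell by 0.45. RRP12, BYSL and NOC4L fell by 0.25, 0.24 and 0.24. NOP14, which in yeast works with the counterpart of NOC4L, had 80.1, 88.8 and 81.5 CPM in si-CHAF1A, against 88.1, 95.4 and 84.8 CPM in si-Ctrl, and did not pass (log2 fold change -0.10, adjusted p = 0.301, and -0.06 without si-Ctrl 2). Of these smaller falls, those of UTP6, WDR43, WDR75, HEATR1, RRP12, BYSL and NOC4L missed the threshold when a single library was left out, with adjusted p-values of 0.0563 to 0.157 by edgeR. Without si-Ctrl 2, NOC4L stood at -0.18 (adjusted p = 0.0565) and RRP12 at -0.15 (adjusted p = 0.0306). The exons of HEATR1 overlap those of LGALS8 on the opposite strand, which had 1464, 1627 and 1721 reads in si-CHAF1A, against 1934, 2185 and 2203 reads in si-Ctrl. The number that fell in this role was 8 without si-CHAF1A 1, 9 without si-CHAF1A 3 and 9 with upper quartile scaling.

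Among the 15 large subunit factors, 10 fell, 0 rose and the median log2 fold change was -0.37. NSA2, a factor of nuclear large subunit precursors known mainly from yeast, stood far from all others. NSA2 (ENSG00000164346, chromosome 5, 74766991 to 74780113, plus strand) had 19.9, 20.2 and 20.1 CPM in si-CHAF1A, against 89.1, 85.7 and 87.5 CPM in si-Ctrl. The 4.35-fold fall (log2 fold change -2.12, SE 0.07, adjusted p = 1.26e-11 by edgeR) was close to that of CHAF1A itself (log2 fold change -2.21). The log2 fold change of NSA2 was the 16th lowest of the 15911 genes, whether or not these passed the test. Exons of NSA2 overlap those of GFM2 on the opposite strand, and GFM2 had 1030, 1069 and 1104 reads in si-CHAF1A, against 949, 1128 and 1108 reads in si-Ctrl.

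The next largest falls were in RRS1, BRIX1 and NOC3L. RRS1, which helps to dock the smallest rRNA of the large subunit with its proteins, had 54.3, 56.5 and 52.5 CPM in si-CHAF1A, against 89.2, 103 and 88.1 CPM in si-Ctrl, a 1.72-fold fall (log2 fold change -0.78, SE 0.08, adjusted p = 1.24e-06 by edgeR). BRIX1, a protein of early large subunit precursors, had 28.1, 32.7 and 35.6 CPM in si-CHAF1A, against 53.0, 53.6 and 54.2 CPM in si-Ctrl, a 1.67-fold fall (log2 fold change -0.74, SE 0.09, adjusted p = 9.4e-06 by edgeR). NOC3L, whose yeast counterpart accompanies precursors on their way out of the nucleolus, had 26.6, 24.5 and 25.2 CPM in si-CHAF1A, against 44.3, 38.6 and 43.0 CPM in si-Ctrl, a 1.65-fold fall (log2 fold change -0.72, SE 0.09, adjusted p = 9.01e-06 by edgeR). All 3 had knockdown libraries well below all controls. Exons of BRIX1 overlap those of RAD1 on the opposite strand, and RAD1 had 364, 431 and 456 reads in si-CHAF1A, against 555, 659 and 682 reads in si-Ctrl, with fewer reads in every knockdown library. Its part in the fall of BRIX1 was not tested.

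The PeBoW complex of PES1, BOP1 and WDR12, which acts in the processing of large subunit rRNA, had 2 genes past the test and 1 not, and the 95% intervals of the 3 fold changes overlapped. WDR12 fell by 0.37 on the log2 scale with no overlap. BOP1 had 173, 151 and 153 CPM in si-CHAF1A, against 169.8, 228 and 183 CPM in si-Ctrl, so the groups overlapped although it passed the test (log2 fold change -0.28, adjusted p = 0.0267 by edgeR). The adjusted p of BOP1 was 0.134 without si-CHAF1A 2, 0.114 without si-CHAF1A 3 and 0.0525 with upper quartile scaling, and its log2 fold change was -0.15 without si-Ctrl 2 (adjusted p = 0.011). PES1 had 82.5, 77.9 and 80.0 CPM in si-CHAF1A, against 80.8, 104 and 80.2 CPM in si-Ctrl, and did not pass (log2 fold change -0.14, 95% interval -0.33 to 0.05, adjusted p = 0.241). Without si-Ctrl 2 the difference of PES1 was -0.01.

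Of the remaining large subunit factors, MRTO4, which holds the place of a ribosomal stalk protein, fell by 0.45 on the log2 scale, NOP16 by 0.41, the nucleolar GTPase GNL3 (nucleostemin) by 0.37 and LAS1L, the nuclease that cuts an internal spacer, by 0.24. LAS1L missed the threshold without si-Ctrl 1 or without any of the si-CHAF1A libraries (adjusted p of 0.0514 to 0.0955). NIP7 had 35.3, 30.2 and 36.2 CPM in si-CHAF1A, against 39.9, 37.4 and 42.3 CPM in si-Ctrl, with no overlap but an adjusted p of 0.0515 (0.00251 without si-Ctrl 2). NOC2L (log2 fold change -0.21, adjusted p = 0.0581, or 0.0215 without si-Ctrl 1) and RRP1 (-0.19, adjusted p = 0.118) did not pass, and without si-Ctrl 2 they stood at -0.12 and -0.09. NOP2, an rRNA cytosine methyltransferase, had only 29, 31 and 29 reads in si-CHAF1A, against 11, 32 and 19 reads in si-Ctrl, too few for a narrow estimate (log2 fold change 0.56, 95% interval -0.11 to 1.24, adjusted p = 0.184, and 0.91 with 0.0515 without si-Ctrl 2). Exons of NOP2 overlap those of another protein-coding gene on the same strand, which had 0 reads in every library. How shared reads were counted is not given, so the level of NOP2 is uncertain.

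Of the RNA polymerase I genes 1 of 4 fell (25%, near the 19.3% of all genes tested), and 0 of 4 without si-CHAF1A 1 or without si-CHAF1A 3. POLR1A, its largest subunit, had 112, 119 and 117 CPM in si-CHAF1A, against 131, 154 and 129 CPM in si-Ctrl (log2 fold change -0.25, SE 0.08, adjusted p = 0.0155 by edgeR). It did not pass without si-CHAF1A 1 (adjusted p = 0.0792) or without si-CHAF1A 3 (0.0542). POLR1B, which forms the catalytic core with POLR1A, had 62.4, 66.6 and 63.9 CPM in si-CHAF1A, against 57.8, 57.2 and 57.7 CPM in si-Ctrl. Its knockdown libraries lay above all controls, opposite to POLR1A, and it did not pass (log2 fold change 0.16, 95% interval 0.01 to 0.30, adjusted p = 0.0779), with an adjusted p of 0.0443 without si-Ctrl 2 and 0.0269 with upper quartile scaling. UBTF, which binds the rRNA gene promoter and gene body, differed by 0.01 (95% interval -0.15 to 0.16, adjusted p = 0.963), and by 0.07 without si-Ctrl 2.

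RRN3, which carries the polymerase to its promoter, had 7, 12 and 24 reads in si-CHAF1A, against 18, 246 and 14 reads in si-Ctrl. The reads of si-Ctrl 2 alone set its log2 fold change of -2.57 (95% interval -6.50 to 1.36, adjusted p = 0.253), which was -0.24 without that library (adjusted p = 0.721). Near-identical copies of RRN3 exist, and an identifier with the symbol RRN3P3 took 148, 132 and 142 reads in si-CHAF1A, against 150, 171 and 209 reads in si-Ctrl. The level of RRN3 is therefore uncertain.

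Scaled by exon length, subunits of a complex stood at unequal levels, and their order was kept in the knockdown for the H/ACA genes. The length is that of all annotated exons of a gene merged, so differences between genes also depend on the annotation. NCL was the highest of the 48, at 124 CPM per kb in si-CHAF1A and 169 CPM per kb in si-Ctrl. NOP10 had 59.7 ± 1.74 CPM per kb in si-CHAF1A and 85.8 ± 9.79 CPM per kb in si-Ctrl, NHP2 42.2 ± 1.41 CPM per kb in si-CHAF1A and 53.2 ± 8.68 CPM per kb in si-Ctrl, and DKC1 28.8 ± 0.97 CPM per kb in si-CHAF1A and 34.9 ± 3.43 CPM per kb in si-Ctrl (SD, n = 3 each). GAR1 lay far below them at 6.42 CPM per kb in si-CHAF1A and 8.48 CPM per kb in si-Ctrl. Among the C/D genes FBL was highest, at 49.98 CPM per kb in si-CHAF1A and 58.6 CPM per kb in si-Ctrl, and NOP56, NOP58 and SNU13 lay between 21.9 and 24.1 CPM per kb in si-CHAF1A and between 26.8 and 30.8 CPM per kb in si-Ctrl.

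**Figure D3:**
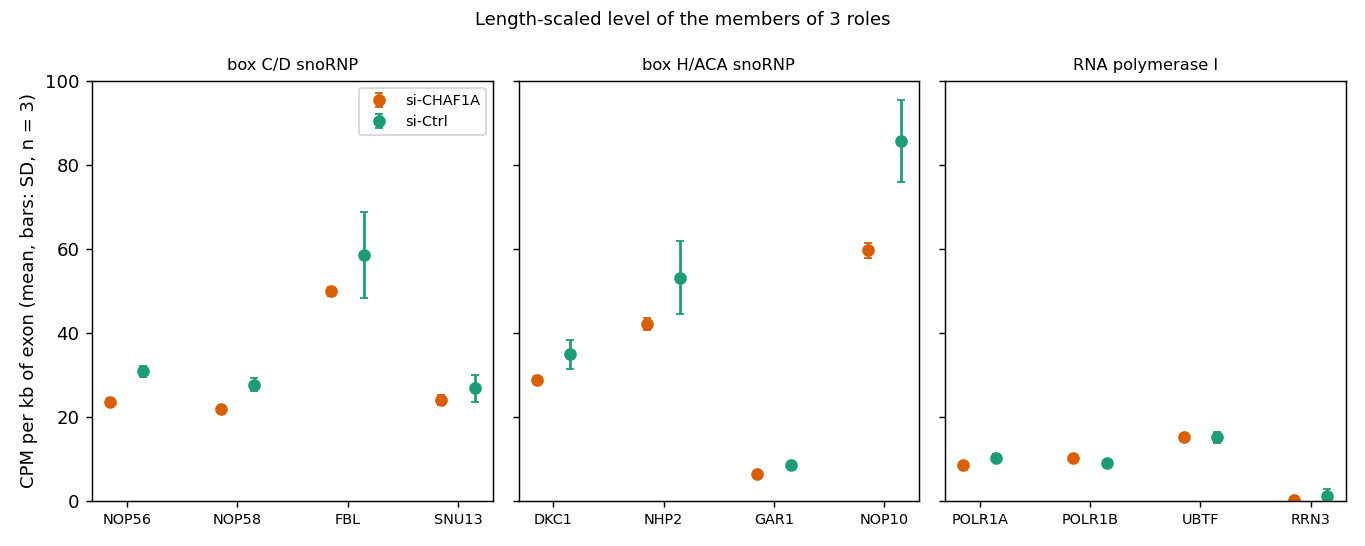
Level per exon length (CPM per kb, mean with SD bars, n = 3) of the genes of 3 roles in si-CHAF1A (orange, left) and si-Ctrl (green, right). The 4 H/ACA genes keep their order with NOP10 on top, at 59.7 in si-CHAF1A and 85.8 in si-Ctrl, and RRN3 is near 0.

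Other genes of the pathway were listed by role, as were the 48 genes, with earlier results of these data known. Of 213 other pathway genes tested (of 222 listed), 121 fell (56.8%), 3 rose (1.41%) and the median log2 fold change was -0.26. Leaving out ribosomal proteins, 71 of 137 fell and 3 rose, with a median of -0.27. The difference between these shares and that of the 48 genes was not tested.

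Other small subunit factors had 14 falls and 1 rise among 34. WDR3 had 30.4 ± 2.70 CPM in si-CHAF1A and 57.6 ± 3.18 CPM in si-Ctrl (SD, n = 3 each; log2 fold change -0.92, adjusted p = 6.65e-07 by edgeR), and PNO1 and WDR36 fell by 0.60 and 0.58. DHX37, the helicase that releases the U3 snoRNA, was the factor that rose, at 89.8 ± 5.77 CPM in si-CHAF1A and 62.5 ± 4.68 CPM in si-Ctrl (log2 fold change 0.52, adjusted p = 7.02e-05 by edgeR), whereas its activator UTP14A fell. Other large subunit factors had 26 falls and 1 rise among 48. RSL24D1 fell by 0.78, RBM28 by 0.66 and the helicase DDX21 by 0.58, to 353 ± 11.4 CPM in si-CHAF1A, against 527 ± 22.8 CPM in si-Ctrl. SBDS, the Shwachman-Diamond syndrome protein that acts late in large subunit maturation, rose to 81.0 ± 2.09 CPM in si-CHAF1A, against 58.3 ± 4.93 CPM in si-Ctrl (log2 fold change 0.48, adjusted p = 0.000135 by edgeR).

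Of 10 snoRNP assembly genes 4 fell, among them ZNHIT6, an assembly factor of C/D snoRNPs, at 17.7 ± 0.597 CPM in si-CHAF1A and 34.7 ± 1.79 CPM in si-Ctrl (log2 fold change -0.97, adjusted p = 5.18e-07 by edgeR), and the ATPase pair RUVBL1 (-0.64) and RUVBL2 (-0.39). Of 16 other RNA polymerase I factors 7 fell, with POLR1E at -0.64, POLR1G at -0.62 and POLR1F at -0.53, and 4 fell without si-CHAF1A 1. Of 13 rRNA and tRNA modification enzymes 8 fell, with DIMT1 at -0.49, NSUN5 at -0.47 and NSUN2 at -0.36. Of 16 exosome subunits and rRNA nucleases 12 fell, with MPHOSPH6 at -0.89, EXOSC9 at -0.59 and EXOSC10 at -0.46, and the nuclease ISG20L2 rose by 0.35. Of 76 cytosolic ribosomal proteins 50 fell and 0 rose, with RPL27 at -0.72 and RPL7 at -0.38, and 33 fell without si-CHAF1A 2.

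**Figure D4:**
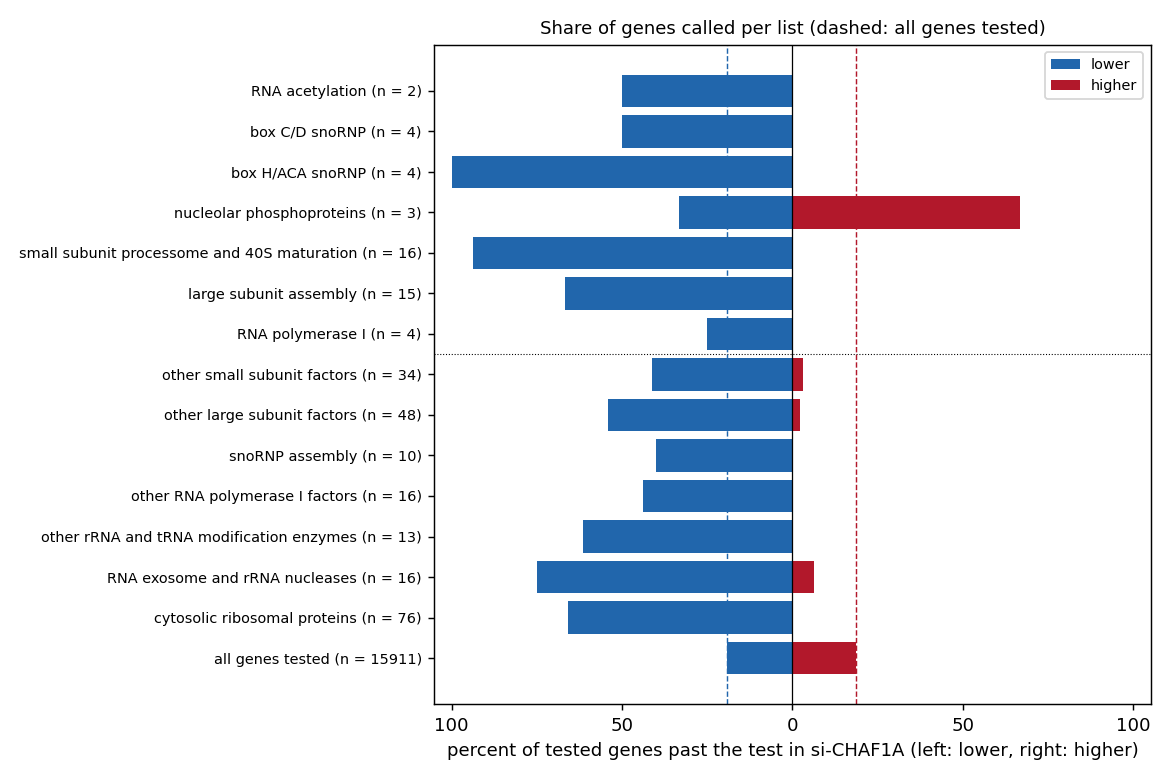
Percent of tested genes (x axis) that fell (blue, left) or rose (red, right) in si-CHAF1A against si-Ctrl, for the 7 roles of the set above the dotted line and for other pathway lists and all 15911 genes tested below it; dashed lines mark the shares over all genes, 19.3% lower and 18.5% higher. Blue bars pass the dashed line in every list of the pathway, and nucleolar phosphoproteins are the only list whose red bar does.

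Most proliferation genes tested also fell, 87.5% against 19.3% of all genes tested, with a median log2 fold change of -0.89. Of 8 tested, 7 fell, with AURKA at -1.46, PLK1 at -1.27 and MKI67 at 341 ± 16.1 CPM in si-CHAF1A and 658 ± 40.9 CPM in si-Ctrl (SD, n = 3 each; log2 fold change -0.95, adjusted p = 2.56e-08 by edgeR). The 1 that did not fall stood at 0.14 and did not pass the test. Its si-CHAF1A libraries all lay above its si-Ctrl libraries (24.1% of all genes tested). The part of the proliferation genes in the falls above was not tested.

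Several of the genes also carry snoRNAs in their introns, which are released from the host's precursor mRNA. By annotation (GENCODE 29) 7 of the 48 host 25 snoRNA genes on their own strand, namely NOP56, NOP58, DKC1, NCL, WDR43, TSR1 and GNL3. All 7 fell, where 70.8% of the 48 genes and 19.3% of all genes tested did. The calls of DKC1 and WDR43 did not hold in every alternative tried. The snoRNAs themselves held 137 reads over all 6 libraries, too few to say whether they changed.

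Finally, 3′ UTRs were searched for GAAGAGA and AAGAGAA, words that earlier work on these data had linked to lower genes and that are no independent evidence. Of the 48 genes, 11 held a word and 8 of these fell (72.7%), and of 37 without one 26 fell (70.3%). Over all tested genes with a 3′ UTR, 29.2% of 3661 with a word fell and 19.8% of 9191 without one. Sites in NAT10 and in NSA2, the enzyme of RNA acetylation and the gene with the largest fall in the set, are shown with GAAGAGA in capitals. In NAT10, which has 2 sites, AAGAGAA overlaps the word in capitals and is not marked.
NAT10 (chromosome 11): tGAAGAGAaactcgggcatctgtgtttgat
NSA2 (chromosome 5): atgtctgcaatGAAGAGAtttattaaattg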

How the data were processed

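RNA of 6 RBE cultures was sequenced with reads of 150 bp, and the authors deposited whole-number counts of reads per gene, not normalised, in 1 table. Per the submitters' processing notes the tools were fastp 0.20.1, HISAT2 2.1.0, SAMtools 1.9, featureCounts 2.0.1 and StringTie 2.1.4 on hg38. With the settings for strand and for reads with several matches not given in the sources used here, counts of the 15 genes whose exons overlap an expressed gene on the other strand, and of RRN3 with its copies, are uncertain. The 15 are NHP2, NOP14, UTP15, HEATR1, TSR1, NOP16, NSA2, PES1, WDR12, NOC2L, GNL3, MRTO4, NIP7, BRIX1 and UBTF. Counts of NOP2, whose exons overlap those of another gene on its own strand, are uncertain as well. Columns named NC were read as negative control and matched to si-Ctrl by number. The design text calls the libraries biological replicates without saying how they were made, so p-values measure the spread between these libraries.

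Genes passing filterByExpr (minimum count 10, minimum total 15) numbered 15911 and were tested with edgeR 4.0.16 (R 4.3.3), using robust quasi-likelihood, TMM and no covariate, after a check on simulated data. The common biological coefficient of variation was 8.12%. CPM is computed here from the deposited counts. SE is the log2 fold change divided by the square root of F. Levels per kb use exon lengths of GENCODE 29, with the exons of all transcripts of a gene merged. Sequences are from RefSeq (GRCh38.p14) and GENCODE 29 (GRCh38). Members and lists were chosen with earlier results of these data known. Values per library are given for NAT10, THUMPD1, members past the test with a log2 fold change of at least 0.5 in size and the 2 members of each role with the smallest adjusted p, and up to 3 genes per direction are named from other lists by adjusted p. MYC and MKI67 are named from their lists. A gene that this rule takes is not reported here. Values per library of FBL, TCOF1, NOP14, BOP1, PES1, NIP7, NOP2 and RRN3 were added after they were seen. Alternatives were RLE and upper quartile scaling, DESeq2 1.42.0, limma-voom (limma 3.58.1), 2 other filters, a replicate block and leaving out each library.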

Additional observations from a re-analysis of the deposited data

How the results depend on the processing

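Alternatives were run gene by gene for the 48 genes, CHAF1A, MYC and MKI67, and none of these that passed the test turned its direction in any of the 13. Of the 36 genes of the set past the test 23 passed in every alternative. The number of the 48 genes that fell was 34 with RLE factors, DESeq2, limma-voom and a filter of at least 1 CPM in 3 libraries, 37 with no filter and 26 with upper quartile scaling, which gave 2562 lower and 3439 higher of all genes. Leaving out 1 library gave 23 (without si-CHAF1A 3) to 34 lower and 1 to 3 higher genes in the set, where 1 remained without si-CHAF1A 1, si-CHAF1A 2, si-Ctrl 1 or si-Ctrl 3, and gave 2358 to 3709 lower and 2346 to 3519 higher of all genes. The median log2 fold change then lay between -0.33 and -0.29. In the other genes of the pathway, 3 to 5 rose, with 5 without si-Ctrl 2, and 95 to 135 fell. The highest numbers over all genes (3709 lower and 3519 higher) and of other pathway genes that fell (135) were those without si-Ctrl 2. The cause of these shifts was not tested. Deviations from the group mean had correlations of -0.0859, -0.0643 and -0.00313 between libraries with the same number. With 3 libraries in a group such deviations are tied to one another, so they cannot decide whether the numbers pair libraries. The labels do not say whether they do. With the number as a replicate block, 29 genes of the set fell, 2 rose and the median was -0.30, with 2723 lower and 2675 higher of all genes, 108 other pathway genes lower and CHAF1A at -2.20. Low read numbers limit NOP2 and RRN3, with under 50 reads in most libraries.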
